A study of Mus musculus with 4 samples.

Results

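The genes described here encode amino acid transporters of the solute carrier families Slc1, Slc3, Slc6, Slc7, Slc36, Slc38 and Slc43. They were taken as every row of the count table whose symbol is one of these family names followed by the letter a and a number. This gave 61 of the 55353 symbols: 7 of Slc1, 2 of Slc3, 19 of Slc6, 15 of Slc7, 4 of Slc36, 11 of Slc38 and 3 of Slc43. Symbols that end in a further letter, such as Slc6a20a, are not matched by this rule and were counted among the other carriers. The rule itself uses no measured value, but it was set with earlier results of these data known.

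RNA was measured in E14 mouse embryonic stem cells, a line kept on gelatin. The 2 libraries labelled Ssrp1 KO are of cells in which Ssrp1, a subunit of the histone chaperone FACT, was targeted with Cas9 and a guide RNA, and the 2 control libraries are of wild-type genotype. The strain of all 4 libraries is given as 12910la, and the same medium is given for both genotypes, with serum, LIF, GlutaMAX (a stable source of glutamine) and nonessential amino acids, so that the cells had amino acids supplied from outside. The treatment text also names a Usp7 hairpin and wild-type cells given the pSuper puro vector and puromycin, and it does not say whether the controls here are such cells. Neither the number of clones nor separate cultures within a group are stated, and the p-values therefore reflect only how far these libraries varied, which may be technical.

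Amino acids cross membranes largely through such carriers. Some couple uptake to the sodium gradient and concentrate their substrate, others exchange an amino acid inside for a different one outside, and a few work at the lysosome, where amino acid supply is read by the kinase mTORC1. Slc3 proteins are not carriers by themselves but heavy chains that bring Slc7 light chains to the cell surface. Embryonic stem cells of the mouse depend on glutamine and threonine, and several of the genes below are known targets of ATF4, the transcription factor that answers amino acid shortage.

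Total counts were 22855451 and 23030224 in the libraries labelled knockout and 22611434 and 25344190 in the controls. The 61 genes took between 0.243% and 0.246% of the counts in the libraries labelled knockout and between 0.254% and 0.271% in the controls. Ssrp1 itself was not lower: it had 305 and 327 normalised CPM (counts after library scaling) in the libraries labelled knockout and 282 and 306 CPM in the controls, a log2 fold change of 0.11 ± 0.06 (SE, edgeR adjusted p 0.226). Its RNA level thus did not bear out the label, and a small Cas9 deletion need not lower it, so the samples are called the libraries labelled knockout throughout. Gm26917 and Gm42418, which resemble ribosomal RNA, took 6.30% and 4.64% of counts in the libraries labelled knockout against 9.72% and 10.3% in the controls. With both genes left out, no call among the transporter genes changed.

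Most of the transporter genes that changed were lower in the libraries labelled knockout. Of the 35 transporter genes with enough counts for the test, 11 were lower and 4 were higher at an adjusted p under 0.05 (edgeR, Benjamini-Hochberg over all 17482 genes tested), and 20 passed in neither direction. That is 31.4% lower and 11.4% higher, where 17.2% of all tested genes were lower and 16.5% were higher; in either direction 42.9% of the transporter genes were called, against 33.6% of all genes. With scaling by library size alone the split over all genes was 3887 higher and 2215 lower, in place of 2877 higher and 3000 lower, and that of the transporter genes was 6 higher and 10 lower. Without control 1 it was 0 higher and 9 lower, without control 2 it was 2 higher and 12 lower, and under DESeq2 it was 1 higher and 9 lower. A fit without 1 library, here and below, has a single library left in that group. Its p-values and calls therefore do not measure the spread of that group. The median log2 fold change over the 35 genes was -0.15, beside 0.00 over all genes tested. Groups did not overlap for 24 of the 35 genes, or 68.6%, which is near the 66.6% of all tested genes. All 15 called genes were among the 24.

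The falls touched the alanine, serine and cysteine exchangers Slc1a4 and Slc1a5, the arginine carrier Slc7a1, the glutamine and alanine carriers Slc38a1 and Slc38a7, the heavy chain Slc3a2 and 5 genes of Slc6. The rises were the glutamate carriers Slc1a1 and Slc1a3 and the large neutral amino acid carriers Slc43a1 and Slc7a8. Slc7a8 passed the filter on low counts through the libraries labelled knockout alone, which favoured a rise. Slc6a6 carries taurine, which is not a building block of protein. Since RNA came from whole cultures, fewer cells of a type and less RNA per cell cannot be told apart for any of these genes.

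**Figure D1:**
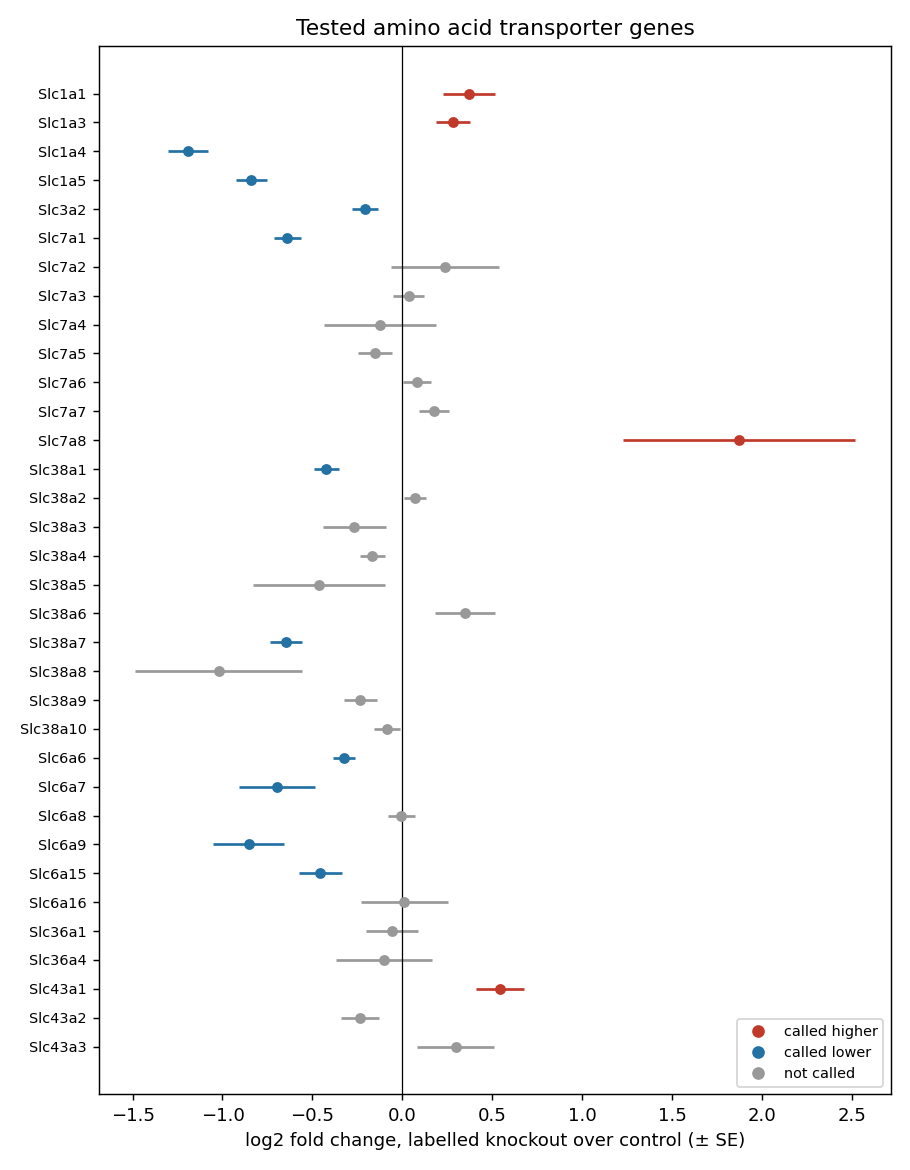
Log2 fold change of 34 tested transporter genes (points, libraries labelled knockout over control, with SE bars, 2 libraries per group), ordered by family. Of these, 10 lie left of 0 as called lower (blue), 4 lie right of 0 as called higher (red), and 20 were not called (grey).

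In the Slc1 family the neutral amino acid exchangers fell. Slc1a4 (chromosome 11, 20302180 to 20332713, mm10, minus strand) encodes an exchanger of alanine, serine, cysteine and threonine. It had 20.5 and 22.9 CPM in the libraries labelled knockout, against 55.5 and 43.8 CPM in the controls. Both libraries labelled knockout lay well below both controls, and the log2 fold change was -1.19 ± 0.11 (SE, edgeR adjusted p 7.5e-08). Slc1a5 (chromosome 7, 16781340 to 16798274), the related exchanger that brings in glutamine, had 33.2 and 31.7 CPM in the libraries labelled knockout and 60.6 and 55.7 CPM in the controls. Its groups were again apart, with a log2 fold change of -0.84 ± 0.09 (adjusted p 2.7e-07).

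Both calls held under all 11 processing alternatives, with log2 fold changes between -1.36 and -1.02 for Slc1a4 and between -0.90 and -0.76 for Slc1a5. In counts, Slc1a4 had 479 and 546 reads in the libraries labelled knockout and 1225 and 1073 in the controls. Together the pair summed to 53.7 and 54.6 CPM in the libraries labelled knockout and to 116.1 and 99.5 CPM in the controls.

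The start of Slc1a4 carries a match to the core of the composite C/EBP-ATF element, the DNA sequence through which ATF4 acts, written TGATGNAA on either strand. Such matches in the RefSeq promoter windows of these genes (GRCm38.p6, 250 bases before to 50 after each annotated start) are printed here because they are the shared sequence feature looked for, 5′ to 3′ in the direction of the gene with the core in capitals. Slc1a4, chr11:20332699-20332728, minus strand, spans the annotated start with its core from base -4 to base 4. Slc7a11 has a pair at chr3:50443642-50443671 and chr3:50443661-50443690, minus strand. Slc7a7 has one at chr14:54417927-54417956 and one at chr14:54418067-54418096, minus strand, and Slc6a21 one at chr7:45282834-45282863, plus strand.
Slc1a4: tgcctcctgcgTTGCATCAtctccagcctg
Slc7a11, nearer the start: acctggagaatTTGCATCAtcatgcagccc
Slc7a11, farther from the start: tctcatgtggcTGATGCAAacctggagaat
Slc7a7, nearer the gene: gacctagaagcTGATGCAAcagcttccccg
Slc7a7, farther from the gene: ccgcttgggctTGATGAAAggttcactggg
Slc6a21: agaggtgagaaTTACATCAagtgggcctcc

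Of the 61 genes, 43 had a promoter entry in that table. The core was present for 4 of the 43, or 9.30%, and for 4.51% of the 27025 genes in the table. By window it was present in 7.81% of the 64 windows of these genes and in 3.97% of all 32851. Among genes with an entry it was found for 1 of 5 that were called lower (Slc1a4), 0 of 4 called higher, 1 of 13 tested and not called (Slc7a7) and 2 of 21 untested (Slc7a11 and Slc6a21). A match is a description of letters and shows no binding, and the counts are too small to compare. Genes without an entry, among them Slc1a5, Slc38a1 and Slc6a6, were not searched, and neither was sequence outside the windows. The Slc6a21 match lies inside its GENCODE gene (chromosome 7, 45277513 to 45288998).

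The sodium-coupled glutamate carriers of the same family were called higher, by less. Slc1a3, the glial type, had 38.8 and 42.7 CPM in the libraries labelled knockout and 31.2 and 35.7 CPM in the controls, a log2 fold change of 0.28 ± 0.10 (edgeR adjusted p 0.027). Slc1a1, which takes up glutamate and cysteine, had 12.9 and 11.6 CPM in the libraries labelled knockout and 9.16 and 9.76 CPM in the controls (0.37 ± 0.14, adjusted p 0.0499). The groups did not overlap for either gene, but the distance between them was small.

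The call of Slc1a3 was lost without control 1 (adjusted p 0.350, log2 fold change 0.18), without knockout replicate 2 (0.113) and under DESeq2 (0.068), and that of Slc1a1 in 5 of the 11 alternatives. Of the exons of Slc1a1, 31.9% overlap 4430402I18Rik on the opposite strand, which had between 3 and 16 counts per library. The remaining glutamate carriers Slc1a2, Slc1a6 and Slc1a7 had between 0 and 9 counts in any library and were not tested.

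Among the heteromeric carriers, the heavy chain Slc3a2 (CD98 heavy chain) was slightly lower. It had 152.4 and 163.3 CPM in the libraries labelled knockout and 194.3 and 170.7 CPM in the controls, with a log2 fold change of -0.21 ± 0.07 (edgeR adjusted p 0.028). The higher library labelled knockout lay just below the lower control. The call was lost without control 1 (adjusted p 0.460, log2 fold change -0.12), with scaling by library size alone (0.197, -0.13) and under DESeq2 (0.063).

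Its most abundant partner, Slc7a5, the main carrier of leucine and other large neutral amino acids, was not called. Slc7a5 had 111.1 and 111.6 CPM in the libraries labelled knockout and 142.2 and 105.5 CPM in the controls, so that the controls lay on both sides of the libraries labelled knockout (-0.15 ± 0.09, adjusted p 0.228). Without control 2 its log2 fold change was -0.36, and without control 1 it was positive (0.07).

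The light chains Slc7a6 and Slc7a7, which exchange cationic for neutral amino acids, were not called either. Slc7a6 had 82.8 and 73.0 CPM in the libraries labelled knockout and 76.8 and 70.5 CPM in the controls (log2 fold change 0.08 ± 0.08). Slc7a7 had 56.8 and 62.9 CPM in the libraries labelled knockout and 56.3 and 49.7 CPM in the controls (0.18 ± 0.08, adjusted p 0.117). It was called higher with library size as the only scaling (0.26, edgeR adjusted p 0.026). Its log2 fold change was 0.25 without knockout replicate 1, 0.08 without control 2 and 0.10 without knockout replicate 2. The groups of Slc7a7 did not overlap, and 232 bases of its exons lie opposite Oxa1l, a gene with 1221 to 1686 counts.

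Slc7a8, a light chain for small and large neutral amino acids, was called higher from few reads: 21 and 13 counts in the libraries labelled knockout and 5 and 4 in the controls (log2 fold change 1.87 ± 0.64, adjusted p 0.030). It was the 1 tested gene of the 35 that passed the filter through the libraries labelled knockout alone, so that passing already required a high value there. Its call was lost under DESeq2 (adjusted p 0.134), without a filter on low counts (edgeR adjusted p 0.052) and without any 1 of the 4 libraries. Over the 10 alternatives that tested it, the log2 fold change ran from 1.47 to 2.18.

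Slc7a11, the cystine and glutamate exchanger with a pair of cores printed above, was nearly absent, with 1 and 0 counts in the libraries labelled knockout and 9 and 0 in the controls. The 9 counts all lay in control 1. Slc3a1, the heavy chain of the kidney cystine carrier, had 4 and 3 counts in the libraries labelled knockout and 5 and 11 in the controls, and 26.5% of its exons overlap Prepl on the opposite strand. Its partner Slc7a9 had 4 and 6 counts in the libraries labelled knockout and 0 and 5 in the controls, and Slc7a10, a carrier of small neutral amino acids, had 0 and 2 against 3 and 2. Slc7a13 had no count in any library.

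Of the 4 tested cationic amino acid carriers and relatives, Slc7a1 was called. Slc7a1 (chromosome 5, 148327410 to 148399904), the widely expressed carrier of arginine, lysine and ornithine, had 92.8 and 102.1 CPM in the libraries labelled knockout and 163.6 and 140.1 CPM in the controls. The groups were well apart (log2 fold change -0.64 ± 0.08, edgeR adjusted p 2.5e-06), and the call held under all 11 alternatives. Slc7a3, a second arginine carrier, had 48.7 and 49.2 CPM in the libraries labelled knockout, inside the 51.2 and 44.4 CPM of the controls (0.03 ± 0.09). Slc7a2 and the related Slc7a4 lay between 1.76 and 2.77 CPM per library and had log2 fold changes of 0.24 ± 0.30 and -0.12 ± 0.31; their errors allow changes in either direction.

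The Slc38 family holds the 2 most abundant genes of the set, and neither was called. Slc38a2, a sodium-coupled carrier of alanine, serine and glutamine that is induced by amino acid shortage, had 494.5 and 493.6 CPM in the libraries labelled knockout and 491.3 and 450.8 CPM in the controls (log2 fold change 0.07 ± 0.06, edgeR adjusted p 0.421). Slc38a4, an imprinted gene expressed in mouse from the paternal copy, had 538.1 and 449.5 CPM in the libraries labelled knockout and 546.0 and 562.3 CPM in the controls (-0.17 ± 0.07, adjusted p 0.079). Library labelled knockout 1 lay close to the controls and library labelled knockout 2 well below them. Its log2 fold change was -0.30 without knockout replicate 1 (adjusted p 3.3e-09) and -0.04 without knockout replicate 2, and it was also called without a filter on low counts.

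Slc38a1, which lies beside these genes on chromosome 15 (96571418 to 96642913), was lower. Slc38a1 carries glutamine and other small neutral amino acids. It had 144.2 and 147.9 CPM in the libraries labelled knockout, against 205.9 and 185.7 CPM in the controls (log2 fold change -0.42 ± 0.07, edgeR adjusted p 6.6e-05). Slc38a2 lies 44.5 kb from it and Slc38a4 a further 295.1 kb away, so the 3 neighbours had log2 fold changes of -0.42, 0.07 and -0.17 in the order in which they lie.

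Slc38a7, which in human cells exports glutamine and asparagine from the lysosome, had 33.3 and 38.7 CPM in the libraries labelled knockout and 57.4 and 55.5 CPM in the controls (chromosome 8, 95835920 to 95853539). Its log2 fold change was -0.65 ± 0.09 (adjusted p 1.1e-05), and both Slc38a1 and Slc38a7 kept their calls under all 11 alternatives. Slc38a9, which in human cells senses lysosomal arginine for mTORC1, had 30.9 and 29.1 CPM in the libraries labelled knockout and 34.9 and 35.6 CPM in the controls. The groups of Slc38a9 did not overlap, but the difference missed the threshold (-0.23 ± 0.09, edgeR adjusted p 0.060). Without knockout replicate 1 its log2 fold change was -0.28.

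Slc38a10 had 86.8 and 95.7 CPM in the libraries labelled knockout and 95.3 and 98.5 CPM in the controls (log2 fold change -0.09 ± 0.07). The glutamine carriers Slc38a3 and Slc38a5, with Slc38a6 and Slc38a8, had log2 fold changes between -1.02 and 0.35, and none was called. Slc38a3 stood at -0.50 without knockout replicate 1 and at -0.07 without knockout replicate 2. Slc38a6 was called higher with library size as the only scaling (0.43, edgeR adjusted p 0.049). It stood at 0.51 without knockout replicate 2 and at 0.16 without knockout replicate 1. Slc38a8 had 17 and 15 counts in the libraries labelled knockout and 21 and 44 in the controls, so that its -1.02 ± 0.46 rests on few reads. Slc38a11 had no count in any library.

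The Slc6 family had 5 falls among 7 tested genes (71.4%) and 0 rises, where 17.2% of all tested genes were lower and 16.5% higher, and 4 of the falls are described here. Slc6a6 (chromosome 6, 91684053 to 91759066), the taurine carrier, was the most abundant gene of this family. It had 237.7 and 251.4 CPM in the libraries labelled knockout and 299.8 and 313.0 CPM in the controls (log2 fold change -0.33 ± 0.06, adjusted p 4.4e-04). The creatine carrier Slc6a8 had 75.9 and 70.0 CPM in the libraries labelled knockout and 74.2 and 72.3 CPM in the controls, and its log2 fold change of -0.01 ± 0.07 was the smallest in size of the 35.

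The glycine carrier Slc6a9 had 4.41 and 6.35 CPM in the libraries labelled knockout and 11.2 and 8.25 CPM in the controls (log2 fold change -0.85 ± 0.20, edgeR adjusted p 0.0022). Its libraries differed within both groups, and without single libraries the value ran from -1.14 to -0.61 with the call kept. Of its exons, 27.8% overlap Ccdc24 on the opposite strand, a gene with 9 to 21 counts per library. Slc6a15, a carrier of branched-chain amino acids and proline, had 13.4 and 14.5 CPM in the libraries labelled knockout and 18.9 and 19.4 CPM in the controls (-0.46 ± 0.12, adjusted p 0.0058).

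The proline carrier Slc6a7 (chromosome 18, 60995380 to 61014222) had 3.42 and 3.57 CPM in the libraries labelled knockout and 6.17 and 5.19 CPM in the controls. Its fall (log2 fold change -0.70 ± 0.21, edgeR adjusted p 0.014) was lost without control 1 (0.117) and under DESeq2 (0.064). Slc6a16, a member without an assigned substrate, had 3.34 and 3.74 CPM in the libraries labelled knockout, inside the 3.94 and 3.10 CPM of the controls.

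Neither tested gene of the proton-coupled Slc36 family was called. Slc36a1, a lysosomal carrier of small neutral amino acids, had 15.5 and 11.3 CPM in the libraries labelled knockout and 14.3 and 13.5 CPM in the controls. Slc36a4 had 3.81 and 2.69 CPM in the libraries labelled knockout and 2.81 and 4.13 CPM in the controls. Their log2 fold changes were -0.06 ± 0.15 and -0.10 ± 0.27.

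Of the Slc43 family, Slc43a1 rose. Slc43a1 (chromosome 2, 84838850 to 84863594), a facilitative carrier of branched-chain amino acids and phenylalanine, had 16.6 and 16.1 CPM in the libraries labelled knockout and 10.2 and 12.3 CPM in the controls (log2 fold change 0.54 ± 0.13, edgeR adjusted p 0.0035). The libraries labelled knockout lay close together and above both controls. The call was lost without control 1 (adjusted p 0.082, log2 fold change 0.41). Slc43a2, with the same kind of substrate, had 20.1 and 20.6 CPM in the libraries labelled knockout and 24.4 and 23.5 CPM in the controls (-0.24 ± 0.11, adjusted p 0.098). Slc43a3, which carries nucleobases, averaged 5.16 ± 0.994 CPM in the libraries labelled knockout and 4.20 ± 0.280 CPM in the controls (SD, n = 2 each), a log2 fold change of 0.30 ± 0.21.

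Slc43a1 and Slc43a3 lie 174 kb and 78.7 kb from Ssrp1, the targeted gene (chromosome 2, 85037234 to 85047109). Of the 7 other tested genes within 250 kb of Ssrp1, 3 were higher and 0 were lower. Over all tested genes, 16.5% were higher and 17.2% lower. The window was chosen after the values were seen, and 7 genes are too few to compare with these shares. The 3 higher genes were Slc43a1 itself, Ube2l6 and Smtnl1. Ube2l6 and Smtnl1 had log2 fold changes of 2.68 ± 0.34 and 3.49 ± 0.42. The part of this position in the rise of Slc43a1 was not tested.

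**Figure D2:**
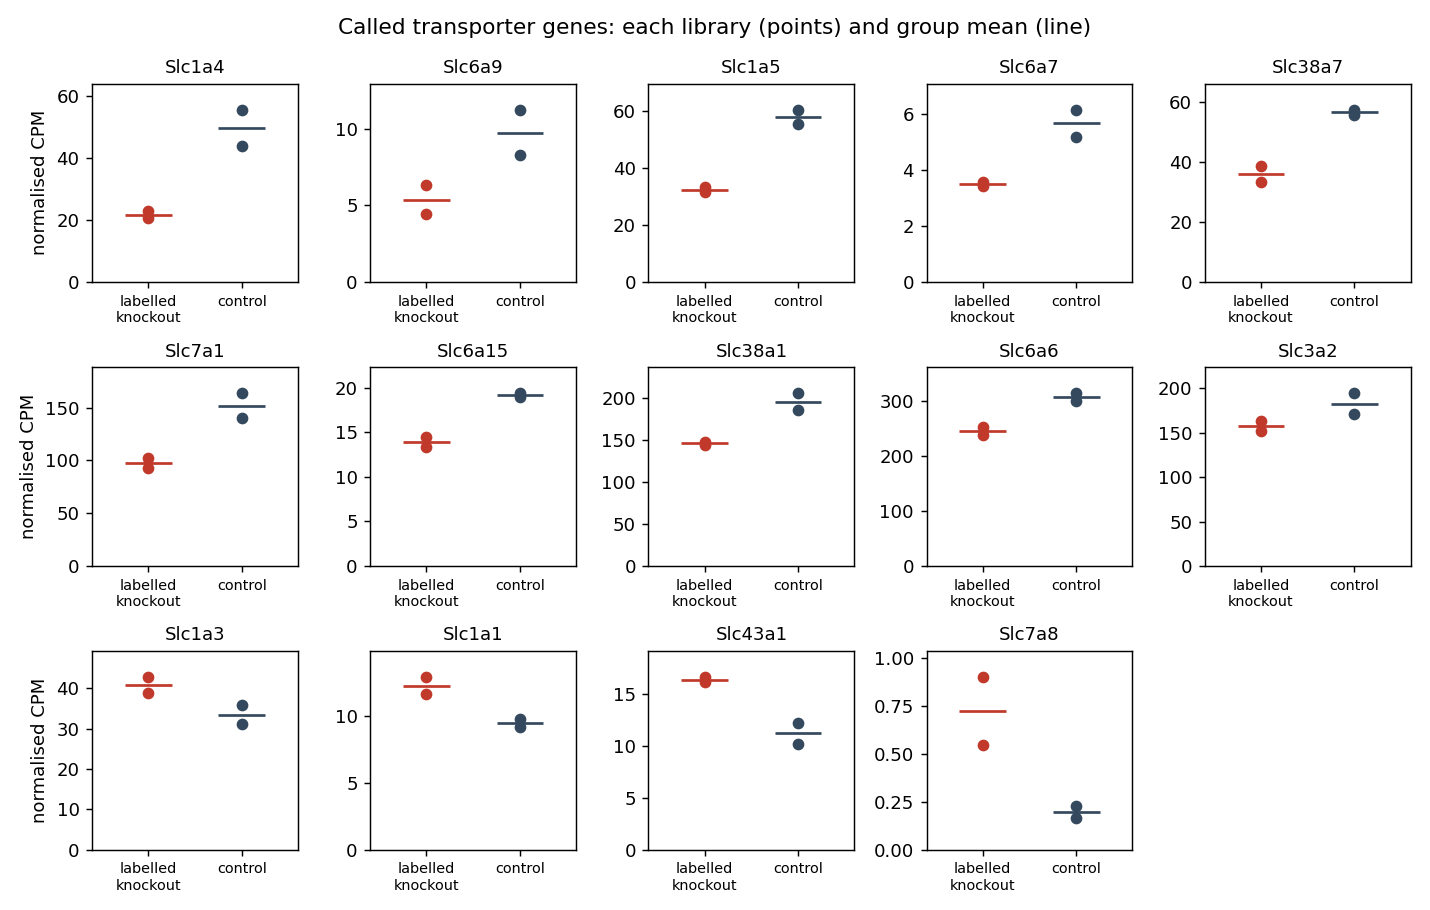
Normalised CPM (y axis, from 0) of 14 called transporter genes in each library (points) with the mean of each group (line), libraries labelled knockout left and controls right, in order of log2 fold change. For 10 genes both libraries labelled knockout lie below both controls, and for Slc1a3, Slc1a1, Slc43a1 and Slc7a8 they lie above.

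The 26 genes that were not tested include 3 without a count in any library (Slc38a11, Slc7a12 and Slc7a13), for which a floor of 3 counts allows up to 0.123 to 0.136 CPM per library. The other 23 had at most 12 counts in a library and at most 34 over all 4. They are mostly carriers of specialised tissues: the monoamine carriers Slc6a2, Slc6a3 and Slc6a4 had between 0 and 6 counts in each library. Slc6a14, a carrier of neutral and cationic amino acids, had 2 and 3 counts in the libraries labelled knockout and 0 and 0 in the controls. Slc6a13, a GABA and taurine carrier, had 10 and 6 counts in the libraries labelled knockout and 1 and 3 in the controls, and Slc6a12, which carries betaine and GABA, had 1 and 5 against 5 and 12. The GABA carrier Slc6a11 had 2 counts in every library. No fold is given for these counts.

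Levels were compared between genes as normalised CPM per kilobase of annotated exon. Slc38a4 stood first, at 126 and 105 CPM per kilobase in the libraries labelled knockout and 128 and 132 in the controls, which is 29.7% and 25.7% of the summed level of the 61 genes in the libraries labelled knockout and 26.3% and 28.8% in the controls. Slc38a2 followed at 51.0 to 56.0 CPM per kilobase over all 4 libraries and Slc3a2 at 43.2 to 55.0, and these ranges overlap. The first 5 genes, with Slc6a6 and Slc7a5, made up 66.7% and 65.1% of the summed level in the libraries labelled knockout and 64.3% and 64.8% in the controls. The next 5 in order, Slc7a7, Slc7a6, Slc38a10, Slc6a8 and Slc7a3, lay between 11.7 and 19.0 CPM per kilobase.

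The following 5 places of the order hold Slc38a7, Slc1a5, Slc7a1, Slc38a1 and Slc1a4 at 5.22 to 14.5 CPM per kilobase. All of these were called lower, whereas Slc3a2 and Slc6a6 were the called genes among the first 10. These places depend on annotated exon length, which was 17236 bases for Slc38a1, 11530 for Slc7a1 and 3529 for Slc3a2. Without division by length, Slc38a1 averaged 195.8 CPM in the controls, above Slc3a2 at 182.5 CPM. Between neighbours in the order, 25 of 34 pairs of tested genes had ranges that overlap over the 4 libraries, so that the exact order carries little beyond groups of similar level. The heavy chain Slc3a2 was above each of its light chains, with Slc7a5 at 30.0 and 30.1 CPM per kilobase in the libraries labelled knockout and 38.4 and 28.5 in the controls. Summed over the 61 genes, the level per kilobase was 425.2 and 410.8 in the libraries labelled knockout and 486.4 and 457.7 in the controls.

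**Figure D3:**
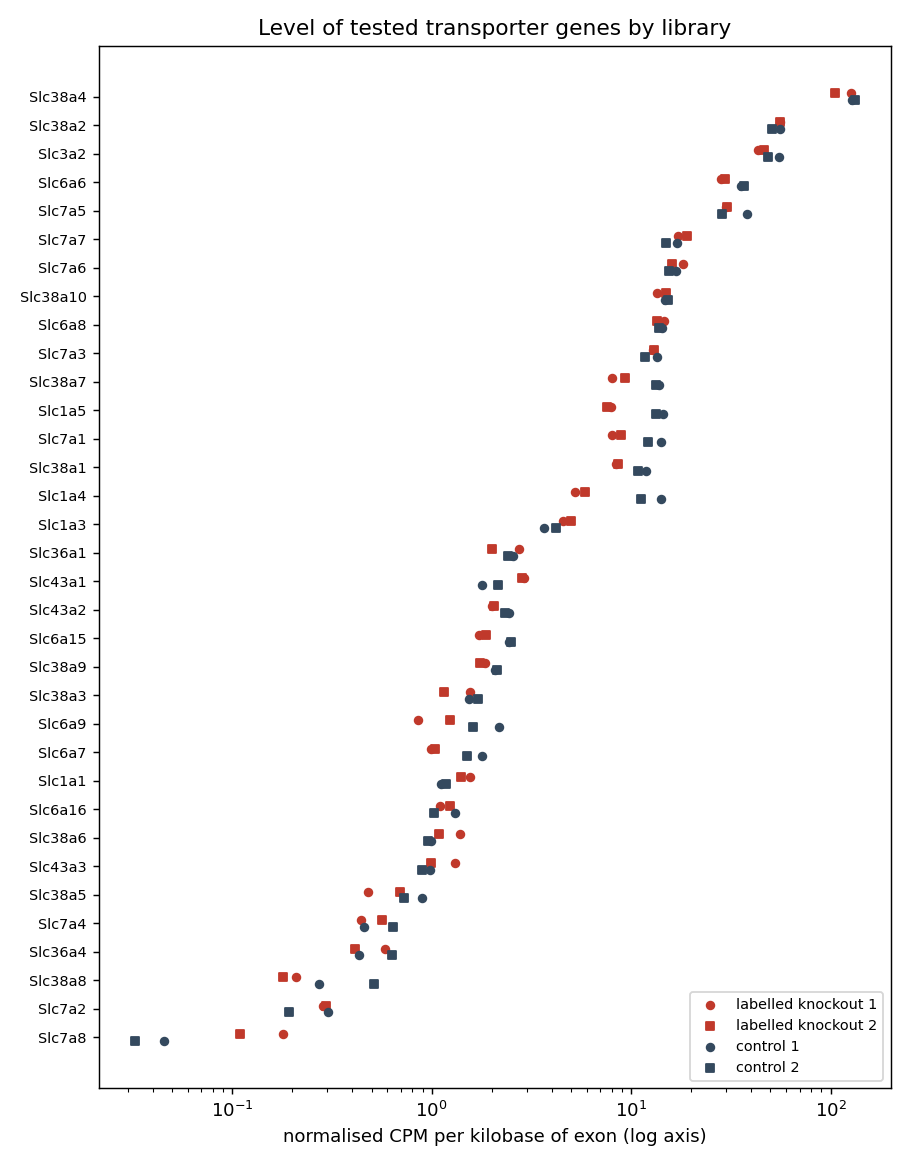
Level of 34 tested transporter genes (rows, highest at the top) in normalised CPM per kilobase of exon (log axis) in each library, with libraries labelled knockout in red and controls in dark blue. Slc38a4 lies at 105 to 132 in all 4 libraries, and red and blue lie far apart for Slc1a4 among genes above 5 and for Slc7a8 at the bottom, which passed the filter through the libraries labelled knockout alone.

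Promoter sequence is shown for one gene that fell and one that rose, because each holds an E-box, a choice made after the search. The E-box is the letters CACGTG bound by Myc and by the lysosomal factors TFEB and TFE3. Of their genes, Myc was called higher (log2 fold change 0.87), Tfeb lower (-0.50) and Tfe3 in neither direction (-0.05). The part of these factors was not tested. The E-box was found for 9 of the 43 genes with an entry, or 20.9%, and for 8.09% of all genes in the RefSeq table. Some genes have several windows, and by window it was found in 14.1% of 64 and 7.15% of all 32851. By gene it was found for 1 of 5 called lower (Slc38a7), 1 of 4 called higher (Slc43a1), 3 of 13 tested and not called and 4 of 21 untested. A match shows no binding, and these counts are too small to compare. The 250 bases before the annotated start are printed with the E-box in capitals, both from RefSeq on GRCm38.p6. For Slc38a7 they lie at chr8:95853492-95853741, minus strand, and for Slc43a1 at chr2:84840073-84840322, plus strand. These RefSeq starts differ from the GENCODE gene bounds given above. By those bounds the Slc43a1 window lies inside the gene (84838850 to 84863594). The Slc38a7 window overlaps its gene, which ends at 95853539, and its E-box lies in the overlap.
Slc38a7: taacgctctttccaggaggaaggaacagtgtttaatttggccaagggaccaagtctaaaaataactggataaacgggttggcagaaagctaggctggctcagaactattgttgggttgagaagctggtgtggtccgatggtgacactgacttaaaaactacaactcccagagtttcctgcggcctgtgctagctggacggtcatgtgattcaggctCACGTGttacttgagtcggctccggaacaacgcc
Slc43a1: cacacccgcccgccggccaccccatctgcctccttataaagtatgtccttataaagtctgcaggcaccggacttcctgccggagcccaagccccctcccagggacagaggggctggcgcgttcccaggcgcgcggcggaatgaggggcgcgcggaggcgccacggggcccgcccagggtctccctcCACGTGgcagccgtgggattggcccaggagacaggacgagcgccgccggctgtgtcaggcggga

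The last pattern searched, TGANNNNGC on either strand (the core of the antioxidant response element), was found for 65.1% of the 43 genes and for 45.0% of all genes in the table. By window the pattern was found in 56.25% of 64 and in 41.3% of all 32851. It is short and matches by letters alone in many windows.

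Genes that work with these carriers were counted in 4 lists. Of 28 symbols listed for other amino acid and peptide carriers, 27 were in the count table. Of these 20 were tested, with 3 higher and 6 lower (median log2 fold change -0.06). Sfxn1, a mitochondrial serine carrier, had 72.1 and 83.2 CPM in the libraries labelled knockout and 114.2 and 121.3 CPM in the controls (-0.60 ± 0.08, edgeR adjusted p 4.0e-06). The peptide carrier Slc15a1 had 16.9 and 13.4 CPM in the libraries labelled knockout and 27.1 and 27.2 CPM in the controls (-0.84 ± 0.12), and the mitochondrial aspartate and glutamate carrier Slc25a13 had 142.1 and 122.0 CPM against 187.8 and 184.8 CPM (-0.50 ± 0.07).

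Of 40 tested genes that signal amino acid supply to mTORC1, 6 were higher and 13 lower (median -0.11), and the split was 11 and 5 when libraries were scaled by size only. Without control 1 the falls in this list numbered 8, without control 2 they numbered 5, and without knockout replicate 1 the rises numbered 11. Fnip1, a partner of folliculin, fell to 172.0 and 172.1 CPM in the libraries labelled knockout, against 242.1 and 246.6 CPM in the controls (log2 fold change -0.51 ± 0.06). Itfg2, a subunit of the KICSTOR scaffold, had 20.5 and 17.5 CPM in the libraries labelled knockout and 31.0 and 28.3 CPM in the controls (-0.64 ± 0.11). The sestrin gene Sesn1 rose to 28.1 and 24.7 CPM in the libraries labelled knockout, against 15.2 and 17.1 CPM in the controls (0.71 ± 0.12).

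Of 22 transcription and stress regulators listed beside the carrier genes, all tested, 5 were higher and 9 lower (median -0.09). The higher genes were Atf5 (log2 fold change 0.92), Cebpb (1.28), Eif2ak1 (0.31), Myc (0.87) and Mycn (0.18). The 3 genes of the list with the smallest adjusted p, given next, all fell. Atf4 had 119.8 and 127.1 CPM in the libraries labelled knockout and 215.4 and 201.8 CPM in the controls (log2 fold change -0.76 ± 0.07, edgeR adjusted p 3.7e-08). The kinase gene Eif2ak2 had 23.1 and 24.0 CPM in the libraries labelled knockout and 39.6 and 37.7 CPM in the controls (-0.72 ± 0.10), and the stress factor gene Nupr1 had 6.63 and 7.27 CPM against 21.5 and 13.2 CPM (-1.31 ± 0.18). Without control 1 the number of falls in this list was 5, and without control 2 the number of rises was 2.

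Of 41 tested genes of amino acid synthesis and use, 8 were higher and 15 lower (median -0.15). Sat1, which acetylates polyamines, had 20.96 and 16.77 CPM in the libraries labelled knockout and 42.04 and 42.64 CPM in the controls (log2 fold change -1.17 ± 0.11). Bcat2, the mitochondrial aminotransferase for branched-chain amino acids, had 53.1 and 47.5 CPM in the libraries labelled knockout and 78.6 and 87.2 CPM in the controls (-0.72 ± 0.08). Gpt2, that for alanine, had 46.3 and 45.9 CPM in the libraries labelled knockout and 86.8 and 69.4 CPM in the controls (-0.76 ± 0.09). In the order given, the lists had 30.0%, 32.5%, 40.9% and 36.6% of tested genes lower, beside 17.2% of all tested genes, and 15.0%, 15.0%, 22.7% and 19.5% higher, beside 16.5%. With library size as the only scaling the other carriers had 4 higher and 4 lower, and the mTORC1 list held more rises than falls, as given above. The lists were drawn up with earlier results of these data known.

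Markers of the labelled cell type and of other cell types were read in the same libraries. All 10 pluripotency markers were expressed in both groups, and of these 2 were higher and 7 lower, with summed levels of 4358 to 4455 CPM in the libraries labelled knockout and 5594 to 5739 CPM in the controls. All 8 tested 2-cell-like markers rose (summed level 67.1 to 67.4 CPM in the libraries labelled knockout, 0.368 to 1.09 CPM in the controls). Each of them was below the filter cutoff of 0.436 CPM in both controls. They passed the filter through the libraries labelled knockout alone, so that passing already required a high value there. Of 9 tested primitive endoderm markers, 7 rose (275.0 to 276.8 CPM against 184.8 to 196.0 CPM). Of the tested markers, 2 of 6 trophoblast genes rose and 0 fell (132.8 to 142.8 CPM against 85.9 to 86.2 CPM), and 2 of 7 neural genes rose and 3 fell (107.5 to 112.2 CPM against 171.9 to 179.9 CPM). Of 5 tested fibroblast markers 1 rose and 2 fell (104.7 to 105.0 CPM against 149.6 to 151.7 CPM). Postn and Lum were at 0 in all libraries. Over all tested genes, 16.5% were higher and 17.2% lower. Single genes made much of the primitive endoderm, trophoblast, neural and fibroblast differences in sum, which therefore do not measure cell types. Lrp2 (primitive endoderm) had 112.4 and 119.5 CPM in the libraries labelled knockout and 70.3 and 67.5 CPM in the controls. Tfap2c (trophoblast) had 91.0 and 94.4 CPM in the libraries labelled knockout and 53.8 and 51.6 CPM in the controls. Ncam1 (neural) had 14.5 and 17.4 CPM against 82.2 and 86.7 CPM, and Vim (fibroblast) 71.2 and 68.0 CPM against 110.8 and 111.5 CPM. No list of glial markers was read, and the part of the listed cell types in the changes of transporter genes was not tested.

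**Figure D4:**
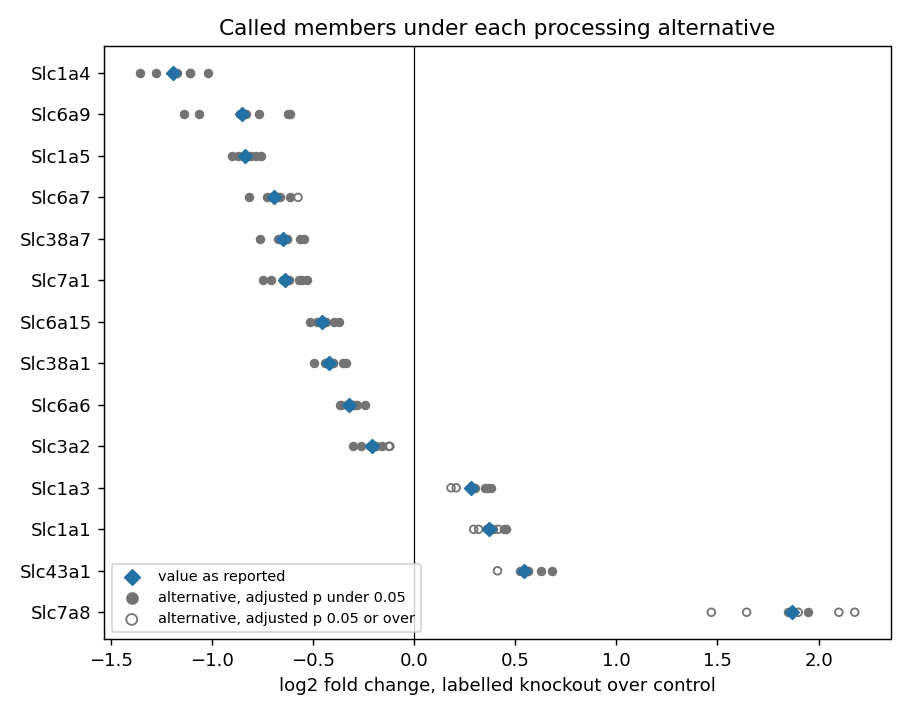
Log2 fold change of 14 called transporter genes as reported (diamonds) and under each processing alternative (circles, open where the adjusted p was 0.05 or over). None of these genes crosses 0, and open circles occur for Slc6a7, Slc3a2, Slc1a3, Slc1a1, Slc43a1 and Slc7a8.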

How the data were processed

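Per the labels' protocols, total RNA was depleted of ribosomal RNA and reverse-transcribed with random primers and actinomycin D. The series calls the libraries strand-specific. Cutadapt, HISAT2, featureCounts and the build mm10 are named per the submitters' processing notes. Their versions, the annotation release and the strand setting of the counting were not given in the sources used here. Without known strand use in counting, 12 members whose exons overlap another gene may share reads with it. The authors deposited raw read counts for each gene symbol, without normalization; all 4 columns were mapped by title.

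Genes were filtered with filterByExpr (minimum count 10, minimum total 15), scaled by TMM and tested with edgeR 4.0.16 (quasi-likelihood F test, 2-sided, prior count 0.125, 2 residual degrees of freedom) in R 4.3.3, with Benjamini-Hochberg adjustment over 17482 genes and a threshold of 0.05. Normalised CPM use TMM-scaled library sizes, and SE is the log2 fold change divided by the square root of F. Positions and exon lengths are from GENCODE M21. Replicates differed by more than sampling noise (chi-square per degree of freedom 11.5 in the libraries labelled knockout and 3.37 in the controls). The test was run on counts simulated from means and dispersions estimated from these same libraries. That check cannot show whether the estimated dispersions hold for these libraries. DESeq2 1.42.0, other scalings and filters, a replicate block and leaving out each library were tried. Floors cover counting error only.

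Members, lists and tests were chosen with earlier results of these data known. Values per library are given for called members with at least 1 CPM, the 10 most abundant members per kilobase and known heteromer partners, and the 3 most significant genes of each list. Members with few counts and uncalled members of small families were added to these after their values were seen. Of the called members, 1 is not reported here by name and is left out of the figures, while counts, sums and medians over the members include it.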

Additional observations from a re-analysis of the deposited data

How the results depend on the processing

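Of the 15 called transporter genes, 9 kept their call in every alternative that tested them, 6 lost it in at least 1, and none changed direction; 6 of the 20 uncalled genes were called in at least 1. Leaving out single libraries gave 0 to 3 higher and 9 to 14 lower transporter genes (4 and 11 as reported), with 0 higher without control 1 and 2 without control 2, and a median log2 fold change of -0.22 to -0.12. The number higher was 1 under DESeq2 and 2 without a filter on low counts. The median was -0.0702 with scaling by library size alone and -0.0494 without a filter, where 58 members were tested. With a replicate block 4 were higher and 12 lower, Slc38a4 being added (edgeR adjusted p 0.035), and no other member's call changed. Differences between replicates 1 and 2 were not shared between the groups (correlation over genes 0.00). The labels do not say whether libraries of the same number were handled together, and this value cannot show it. Genes higher over the whole table were 1915 to 2995 without single libraries. Ssrp1 was called higher with scaling by library size alone (0.19) and ranged from 0.0415 to 0.16 without single libraries. The mTORC1 list had 10 higher at 5 CPM in 2 libraries and 11 with library size alone, 7 lower under DESeq2 and 5 with library size alone, and 4 to 11 higher and 5 to 13 lower without single libraries. The regulator list had 3 higher under DESeq2, and 2 to 5 higher and 5 to 9 lower without single libraries. The cause of these shifts was not tested. With 2 libraries per group, members under about 1 CPM can show only large changes.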

Other observations

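The controls differed from each other in the transporter genes. Of the 35 tested, 23 were higher in control 1 than in control 2 (65.7%, median log2 ratio 0.12), where this held for 49.6% of all genes tested. Of the 11 called lower it was 9 (81.8%, median 0.19), beside 52.1% of all 3000 genes called lower. Among those called lower, Slc1a4 had 55.5 CPM in control 1 and 43.8 CPM in control 2, and Slc7a1 had 163.6 and 140.1 CPM, while Slc6a6 and Slc6a15 were higher in control 2. Slc7a5, which was not called, had 142.2 CPM in control 1 and 105.5 CPM in control 2. The comparison was made after the values were seen, and no test was run on it.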
